A study of Homo sapiens with 6 samples.

Results

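The proteasome subunit genes were examined in Huh7 hepatoma cells transfected with a plasmid that expresses the circular RNA hsa_circ_0098181 or with a control plasmid. They were taken by symbol as every gene named PSM followed by a letter from A to G and a number. This gave 48 of the 50868 genes in the table: 8 alpha (PSMA) and 11 beta (PSMB) genes of the core particle, 6 ATPase (PSMC) and 14 non-ATPase (PSMD) genes of the regulatory cap, 5 genes of other regulators (PSME and PSMF) and 4 assembly chaperones (PSMG). The symbol alone decided which genes belonged, and no measured value did. The family itself was chosen with earlier results of these data known. Huh7 is an established line of human hepatocellular carcinoma cells, and total RNA was taken 48 h after Lipofectamine 2000 transfection from 3 libraries of each plasmid. The plasmid was introduced transiently into 1 cell line, so cells that took up no plasmid were in the same bulk RNA. Nothing in the labels says that the libraries came from separate cultures, and the p-values therefore measured the spread between these libraries, which may be technical. In bulk RNA of this kind, fewer cells with a transcript and less of it per cell cannot be told apart.

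The proteasome is the large protease that degrades proteins tagged with ubiquitin in the cytosol and the nucleus. Its core is a stack of alpha and beta rings in which 3 kinds of beta subunit cut peptide bonds, and its cap recognises ubiquitin, removes it and threads the substrate into the core with a ring of ATPases. The rings hold their subunits in fixed proportion, and the genes are known to be regulated in concert.

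The count table held 11130902 to 14138262 reads per library. SOX5, the gene that hosts the circle and the check of the labels, was counted at 1905, 2396 and 2012 CPM (read counts scaled to a common library size by TMM) after overexpression and 41.8, 34.4 and 31.3 CPM in the controls, a log2 fold change of 5.88 ± 0.16 (SE, n = 3 and 3, edgeR adjusted p = 2.6e-06). Counts per gene do not separate reads of the circle or its plasmid from those of linear SOX5 transcripts. This value therefore does not measure a change of the SOX5 mRNA. All 9 hepatocyte and hepatoma markers were well counted, with AFP at 131258 to 178850 reads, while the endothelial genes CDH5 and VWF and the T cell gene CD3E had 0 to 2 reads in any library. The fibroblast genes DCN and COL1A1 had 0 to 12 reads and the leukocyte gene PTPRC 9 to 23. COL1A2, LYZ and PECAM1, from the fibroblast, leukocyte and endothelial lists, carried 58 to 144, 4597 to 7356 and 570 to 785 reads, and their part in the results was not tested. Control replicate 1 stood apart from the other libraries. Its mitochondrially encoded genes took 9.295% of the reads against 6.32 to 7.04% elsewhere, and the proteasome genes took 0.564% against 0.645 to 0.675%. The number of proteasome genes above 0 and the class medians are therefore given with and without it. The same holds for single genes whose values moved by more than 1.5 times or changed sign.

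Proteasome transcript levels showed no difference between the plasmids that passed the test. Of the 48 genes, 44 had enough reads to be tested, and 0 of them were called at an edgeR adjusted p under 0.05, where 0.0399% of the 15055 genes tested were called. DESeq2 and limma also called 0 of the proteasome genes. The smallest adjusted p was 0.797, and 0 of the 44 had an unadjusted p under 0.05, against 5.5% of all genes tested. The smallest unadjusted value was 0.0623, for PSMB1. The log2 fold changes ran from -0.20 for PSMD7 to 0.61 for PSMB10, with a median of 0.04 beside 0.00 over all genes tested. A total of 28 genes were above 0 (63.6% of 44) and 16 below, where 50.5% of all genes tested were above 0.

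These libraries also set limits on the size of a difference. The standard errors were 0.08 to 0.34 on the log2 scale, with a median of 0.12. The 95% interval lay inside a 2-fold change in either direction for 42 of the 44 genes and inside a 1.5-fold change for 39. PSMB10 and PSMG3 were the genes whose intervals reached beyond 2-fold, at -0.17 to 1.38 and -0.05 to 1.06 on the log2 scale. These 2 genes had 520 and 1334 reads over the 6 libraries, and in both control replicate 1 lay furthest below the other controls, by 1.28 and 0.92 on the log2 scale. Their standard errors of 0.34 and 0.24 were 0.19 and 0.14 without it.

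The leaning above 0 was smaller without control replicate 1. The mean of the 44 genes, each taken as log2 CPM relative to its mean over the 6 libraries, was 0.10, 0.02 and 0.01 in the overexpression libraries and -0.21, 0.02 and 0.06 in the controls. Control replicate 1 thus lay below every other library, and the other 5 libraries overlapped. It was the lowest of the 6 libraries for 28 of the 44 genes, compared with 26.5% of all genes tested. Without it, 23 of the 44 genes were above 0 and 21 below, beside 51.2% above 0 over the 15387 genes tested in that fit, and their median was 0.02. In that fit 1 proteasome gene, PSMB5, had an unadjusted p under 0.05, where 4.27% of all genes tested did, and 0 were called, where 0.026% of all genes were.

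**Figure D1:**
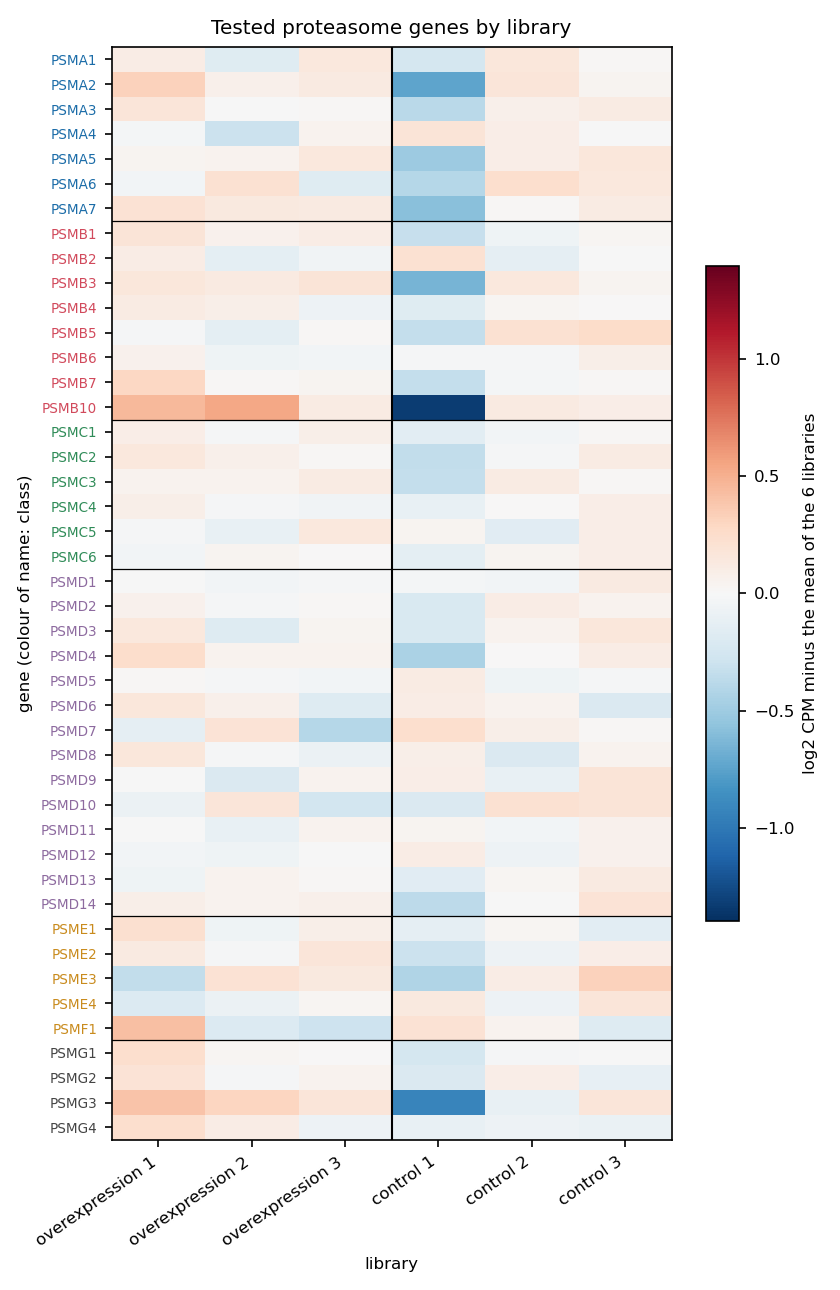
Heat map of the 44 tested proteasome genes (rows, ordered and coloured by class) in the 6 libraries (columns); colour is log2 CPM minus that gene's mean over the 6 libraries. The column of control replicate 1 is blue for most core genes, with a mean of -0.21 over all rows, whereas the other 5 columns have means of 0.01 to 0.10.

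The groups did not overlap for 4 genes, PSMA7, PSMB1, PSMB7 and PSMG1, all of them higher after overexpression. Over all genes tested, 6.4% were higher without overlap and 6.5% lower, and 0 proteasome genes were lower without overlap. PSMB1, a structural beta subunit (chr6:170535117-170553341, minus strand, hg38), was at 198, 182 and 188 CPM after overexpression and 139, 167 and 177 CPM in the controls. Its log2 fold change was 0.23 ± 0.11 (SE) with all libraries and 0.14 without control replicate 1.

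The alpha subunits form the outer rings of the core, which gate its entrance. Of the 8 genes, 7 were tested, of which 5 were above 0 and 2 below, with a median log2 fold change of 0.11. Without control replicate 1 the median was -0.04, and 2 of the 7 were above 0. PSMA2 had the highest value of the class (chr7:42916857-42932223, minus strand). Its levels were 115, 96.1 and 100.4 CPM after overexpression and 55.2, 103 and 94.2 CPM in the controls. The groups overlapped, with 1 control far below the other 5 libraries, and the log2 fold change of 0.30 ± 0.21 (SE) was 0.08 without that control. PSMA2 shares its locus with MRPL32 on the opposite strand, which held 63.1% as many reads. PSMA7 (chr20:62136735-62143440, minus strand) was at 220, 210.1 and 208 CPM after overexpression and 127, 193 and 207 CPM in the controls. The highest control was just below the lowest overexpression library, and the log2 fold change of 0.28 ± 0.17 (SE) was 0.09 without control replicate 1.

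PSMA4 had the lowest value among the alpha genes (chr15:78540405-78552419, plus strand). It was counted at 206, 170.3 and 216 CPM after overexpression and 238, 224 and 208 CPM in the controls. Overexpression replicate 2 was the low library, the groups overlapped, and the log2 fold change was -0.18 ± 0.11 (SE), or -0.13 without control replicate 1. PSMA8, the testis alpha subunit that replaces PSMA7 in germ cells, had 0 reads in all 6 libraries. A count of 0 allows up to 3 reads per library.

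The beta subunits form the inner rings. Of 11 genes, 8 were tested, with 5 above 0, 3 below and a median log2 fold change of 0.16, which was 0.05 without control replicate 1. PSMB5, PSMB6 and PSMB7 carry the standard catalytic sites with chymotrypsin-like, caspase-like and trypsin-like activity. PSMB5 (chr14:23016543-23035230, minus strand) was at 126, 116 and 129 CPM after overexpression and 101, 147 and 152 CPM in the controls. The controls thus lay on both sides of the overexpression libraries. The log2 fold change was -0.11 ± 0.15 (SE) with all libraries and -0.28 without control replicate 1 (edgeR adjusted p = 0.959). That was the lowest value of any proteasome gene without this library.

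PSMB6 (chr17:4796144-4798503, plus strand) was the steadiest of the 44 genes, at 115, 106 and 107 CPM after overexpression and 109, 109 and 117 CPM in the controls. Its coefficient of variation over the 6 libraries was 3.91%, and its log2 fold change was -0.03 ± 0.09 (SE), or -0.04 without control replicate 1. PSMB7 (chr9:124353466-124415444, minus strand) was at 249, 207 and 209 CPM after overexpression and 161, 200.1 and 206 CPM in the controls. The highest control was just below the lowest overexpression library, with a log2 fold change of 0.23 ± 0.12 (SE), and 0.13 without control replicate 1.

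PSMB8, PSMB9 and PSMB10 are the interferon-inducible counterparts that take the places of PSMB5, PSMB6 and PSMB7 in the immunoproteasome. PSMB8 (chr6:32840717-32844703, minus strand) had 12, 10 and 7 reads after overexpression and 5, 7 and 1 reads in the controls. PSMB9 (chr6:32844136-32859585, plus strand) had 3, 2 and 2 reads after overexpression and 2, 5 and 0 in the controls. These genes lie next to each other and overlap on opposite strands, both failed the filter on low counts, and no difference could be detected at this depth. PSMB10 (chr16:67934502-67937087, minus strand) was at 8.57, 9.06 and 6.79 CPM after overexpression and 2.49, 6.81 and 6.67 CPM in the controls. The gene overlaps CTC-479C5.12 on the same strand, which held 54% as many reads. Control replicate 1 was again far below, the other controls lay at the level of overexpression replicate 3, and the log2 fold change of 0.61 ± 0.34 (SE) was 0.28 without that library. PSMB11, which is found in the thymus, had 1 read in each of 2 libraries and none in the other 4.

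Per kilobase of the principal transcript, the standard subunits far outnumbered the inducible ones. Summed over the 6 libraries, reads per kilobase were 205 times as many for PSMB5 as for PSMB8, 540 times as many for PSMB6 as for PSMB9 and 37.9 times as many for PSMB7 as for PSMB10. The last ratio was 28.3 to 38.3 in 5 libraries and 80.2 in control replicate 1. The first 2 ratios rest on 42 and 14 reads of the inducible gene.

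**Figure D2:**
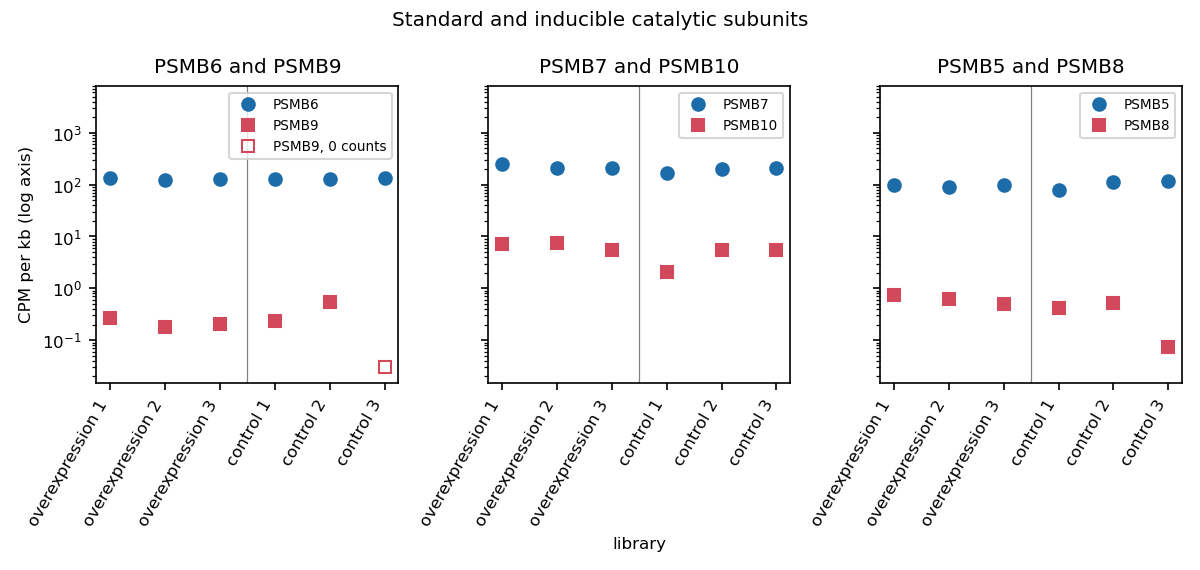
CPM per kilobase of principal transcript (log axis) for each standard catalytic subunit (circles) and its inducible counterpart (squares) in the 6 libraries; the open square marks a library with 0 reads, drawn near the foot of the axis. The standard subunit lies above its counterpart in every library, by 37.9-fold over all reads for PSMB7 and PSMB10 and more for the other pairs.

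The level of the core genes also varied among themselves. Per kilobase, the 7 standard beta genes spanned 99.2 CPM for PSMB5 to 240 CPM for PSMB4, a range of 2.42-fold. The 7 standard alpha genes spanned 26.5 CPM for PSMA5 to 195 CPM for PSMA7, or 7.34-fold. PSMA5 and PSMA4, the lowest alpha genes per kilobase, were divided by principal transcripts of 3729 and 4411 bases, the longest of their class, so their place depends on the transcript used.

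The 6 ATPases (PSMC1 to PSMC6) form the ring that unfolds substrates. All 6 had log2 fold changes above 0, between 0.00 and 0.15, and 5 did under RLE scaling, where PSMC6 was below 0. Without control replicate 1, 4 of the 6 were above 0. Their median was 0.06 with all libraries and 0.02 without it. PSMC2 was the highest of the class (chr7:103344254-103369395, plus strand). It was counted at 324, 308 and 297 CPM after overexpression and 230.4, 290.2 and 316 CPM in the controls. The groups overlapped, and the log2 fold change of 0.15 ± 0.12 (SE) was 0.03 without control replicate 1. The lowest, PSMC6, was at 0.00 ± 0.09 (SE), and at -0.06 without control replicate 1.

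PSMC1 (chr14:90256495-90275429, plus strand) had the lowest level of its class per kilobase. At 42.05, 39.2 and 41.9 CPM after overexpression and 35.8, 38.6 and 39.99 CPM in the controls, it gave 8.9 CPM per kilobase, whereas the other 5 ATPases gave 52.1 to 142 CPM per kilobase. Its principal transcript of 4448 bases is the longest of the class. Its row is also not the only one that its reads can enter. The table lists 12 processed copies of PSMC1, and they held 10314 reads against 2989 for PSMC1 itself. Of these, 10194 were in PSMC1P1, on another chromosome (chr3:68635705-68637024, hg38). A total of 1320 bases of PSMC1P1 aligned with the PSMC1 coding sequence with 1 mismatch and no gap, an identity of 99.92%. Of the 1293 runs of 31 bases in the PSMC1 coding sequence, 1259 (97.4%) also occur in PSMC1P1. The mismatch is T885A, counted from the A of the start codon with the PSMC1 base first. It turns codon 295 from TAT, for tyrosine, into TAA, a stop codon. The sequences around it are shown because this is the 1 place in the aligned stretch where a read can tell the copies apart. Both are from GENCODE 29 on GRCh38, bases 835 to 935, written 5′ to 3′ with the differing base in capitals.
PSMC1: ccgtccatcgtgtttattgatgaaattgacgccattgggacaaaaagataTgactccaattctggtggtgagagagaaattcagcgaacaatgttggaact
PSMC1P1: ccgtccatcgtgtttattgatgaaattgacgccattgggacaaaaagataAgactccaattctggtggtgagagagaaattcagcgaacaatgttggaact

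How reads that match both copies were assigned is not given in the sources used here, so the split between these rows is uncertain. The ratio of pseudogene to PSMC1 reads was 3.56, 3.32 and 3.36 after overexpression and 3.22, 3.44 and 3.76 in the controls, and the groups overlapped. The sum of PSMC1 and its copies was 192, 169 and 183 CPM after overexpression and 151, 171 and 190.3 CPM in the controls. Neither the gene alone, at a log2 fold change of 0.11 ± 0.10 (SE) and 0.07 without control replicate 1, nor the sum separated the plasmids. Over all 48 genes, pseudogenes named after 12 of them held 11249 reads, compared with 485462 for the genes themselves, and PSMC1P1 accounted for most of these.

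**Figure D3:**
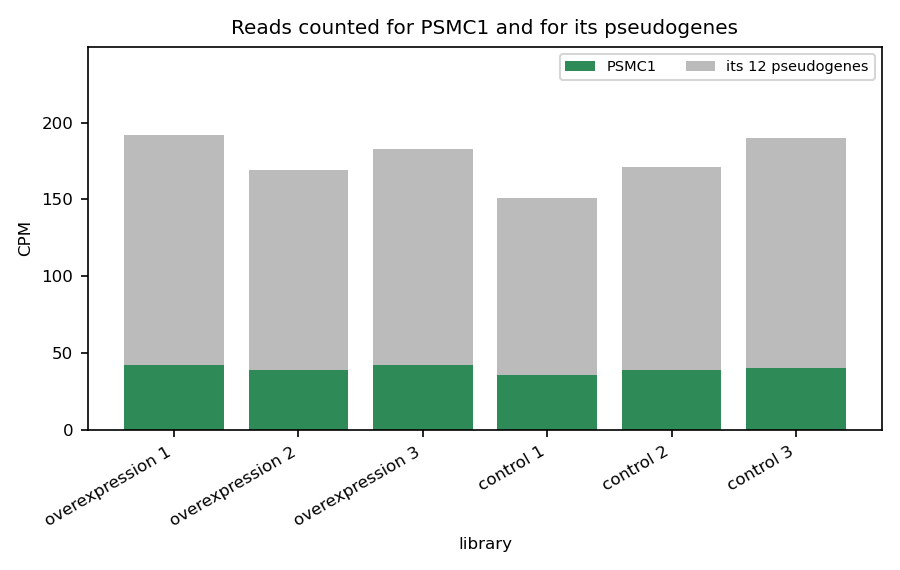
Stacked bars of CPM counted for PSMC1 (green) and for its 12 pseudogenes together (grey) in the 6 libraries. The grey part is 3.22 to 3.76 times the green part in every library, and the bars of the groups overlap.

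The non-ATPase genes encode the lid, the scaffold and the ubiquitin receptors of the cap, and some assembly factors. All 14 were tested, 6 above 0 and 8 below, with a median log2 fold change of -0.01 that was -0.04 without control replicate 1. PSMD14, the deubiquitinase that strips ubiquitin chains from substrates (chr2:161308038-161411717, plus strand), was at 311, 304 and 309 CPM after overexpression and 228, 293 and 336 CPM in the controls. The controls spread wider than the difference, and the log2 fold change of 0.11 ± 0.13 (SE) was -0.03 without control replicate 1. PSMD4, a ubiquitin receptor (chr1:151254703-151267479, plus strand), had the highest value of the class. It was at 188, 164 and 164 CPM after overexpression and 117, 159 and 170.2 CPM in the controls, a log2 fold change of 0.21 ± 0.14 (SE) and 0.07 without control replicate 1.

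PSMD7, the lid subunit that pairs with PSMD14 (chr16:74296775-74306288, plus strand), had the lowest value of all 44 genes. Its levels were 179, 223 and 148 CPM after overexpression and 229, 206 and 196 CPM in the controls. The overexpression libraries lay on both sides of the control with the lowest value, and the log2 fold change was -0.20 ± 0.15 (SE), or -0.13 without control replicate 1.

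PSMD5, PSMD9 and PSMD10 are chaperones that help to build the ATPase ring. PSMD10, also known as gankyrin and described as an oncoprotein of liver cancer (chrX:108084207-108091618, minus strand), was at 31.4, 37.3 and 27.8 CPM after overexpression and 28.9, 38.6 and 37.6 CPM in the controls. The groups overlapped, with a log2 fold change of -0.12 ± 0.16 (SE) and -0.24 without control replicate 1. PSMD5 (chr9:120815496-120842984, minus strand) was at 147, 144 and 142 CPM after overexpression and 157, 139.9 and 144 CPM in the controls. PSMD9 (chr12:121888731-121918297, plus strand) was at 15.65, 13.6 and 16.2 CPM after overexpression and 16.8, 14.65 and 17.8 CPM in the controls. Their log2 fold changes were -0.03 ± 0.08 and -0.11 ± 0.13 (SE), or 0.03 and -0.10 without control replicate 1, and in both the groups overlapped.

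Among the alternative regulators, 2 of 5 genes were above 0 and 3 below, and the median log2 fold change of -0.01 was 0.08 without control replicate 1. PSME1 and PSME2 encode the interferon-inducible activator ring that opens the core without ATP. PSME1 (chr14:24136158-24138967, plus strand) was at 37.7, 30.9 and 34.0 CPM after overexpression and 29.5, 33.0 and 29.05 CPM in the controls. PSME2 (chr14:24143362-24147570, minus strand) was at 50.1, 45.7 and 51.95 CPM after overexpression and 37.3, 43.8 and 49.3 CPM in the controls. Both overlapped between groups, with log2 fold changes of 0.16 ± 0.12 and 0.18 ± 0.12 (SE), or 0.14 and 0.08 without control replicate 1. Unlike PSMB8 and PSMB9, which the same cytokine induces, this pair was well counted in every library, at 32.2 and 33.0 CPM per kilobase on average. Both overlap a gene on the opposite strand: EMC9 held 15.4% as many reads as PSME1, and RNF31 84.6% as many as PSME2. How reads of such pairs were assigned is not given in the sources used here.

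PSME3, the nuclear activator (chr17:42824385-42843758, plus strand), and PSMF1, an inhibitor of the core (chr20:1113263-1189415, plus strand), varied within the groups. PSME3 was at 124.5, 182 and 174 CPM after overexpression and 118, 170.3 and 197 CPM in the controls. PSMF1 was at 151, 98.8 and 92.8 CPM after overexpression and 129.7, 117 and 99.5 CPM in the controls. In each gene the range within a group was larger than the difference between groups, with log2 fold changes of -0.01 ± 0.20 and -0.01 ± 0.19 (SE). Without control replicate 1 these were -0.20 and 0.08. PSME4, an activator linked to histone degradation (chr2:53864067-53970840, minus strand), was at 141, 151 and 164 CPM after overexpression and 176, 153 and 180.0 CPM in the controls, a log2 fold change of -0.16 ± 0.10 (SE), or -0.13 without control replicate 1.

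Of the assembly chaperones, 4 of 4 were above 0, both with and without control replicate 1 and under each scaling. Their median log2 fold change was 0.18 with all libraries and 0.14 without it, and 0 of the 4 were called. PSMG1 and PSMG2 form 1 heterodimer and PSMG3 and PSMG4 another, and together they guide the alpha ring. PSMG1 (chr21:39174769-39183851, minus strand) was at 64.4, 55.4 and 54.7 CPM after overexpression and 46.1, 53.8 and 54.2 CPM in the controls. The lowest overexpression library lay just above the highest control, with a log2 fold change of 0.18 ± 0.11 (SE) and 0.11 without control replicate 1. PSMG2 (chr18:12658043-12725740, plus strand) was at 78.4, 67.7 and 70.8 CPM after overexpression and 59.9, 73.2 and 63.5 CPM in the controls, and the groups overlapped. Its log2 fold change was 0.14 ± 0.11 (SE), or 0.08 without control replicate 1.

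PSMG3 (chr7:1567330-1571005, minus strand) was at 21.95, 20.5 and 18.7 CPM after overexpression and 8.77, 15.5 and 18.8 CPM in the controls. The highest control was at the level of the lowest overexpression library, and control replicate 1 was far below both. The log2 fold change of 0.50 ± 0.24 (SE, edgeR adjusted p = 0.797) was 0.25 without control replicate 1. PSMG4 (chr6:3231403-3303373, plus strand) was at 9.98, 9.13 and 8.08 CPM after overexpression and 7.94, 8.09 and 7.98 CPM in the controls. Its log2 fold change of 0.18 ± 0.15 (SE) was the same to 2 decimals without control replicate 1. PSMG2, PSMG3 and PSMG4 overlap genes on the opposite strand. SPIRE1 held 55.4% as many reads as PSMG2, PSMG3-AS1 38.9% as many as PSMG3, and SLC22A23 812% as many as PSMG4. In all, 29 of the 48 genes overlap another gene of the table, and for 18 of them that gene held more than 10% as many reads. Strand use in counting is not given in the sources used here, and some pairs, such as PSMB10 and CTC-479C5.12, lie on the same strand. Reads of such pairs therefore cannot be assigned with certainty.

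**Figure D4:**
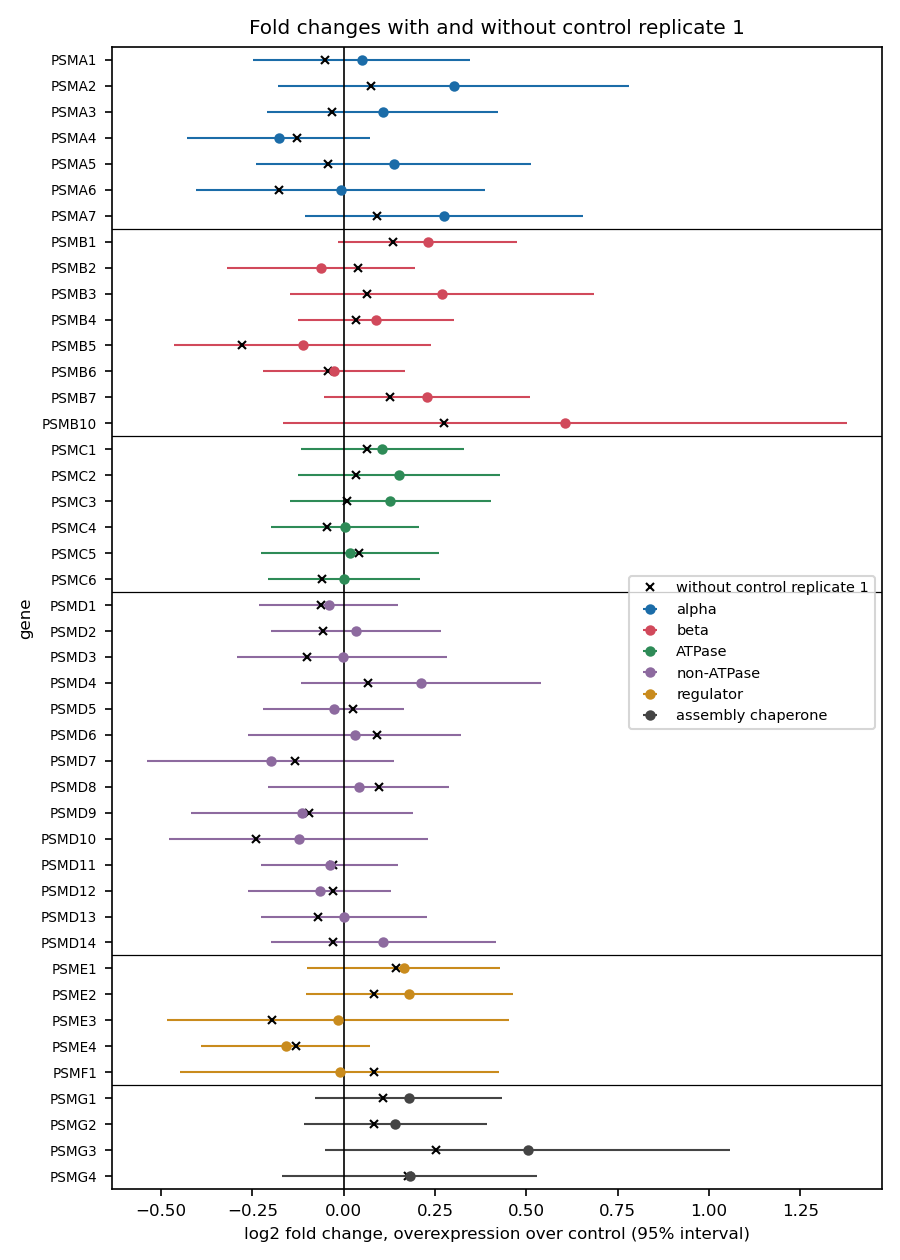
Log2 fold change of overexpression over control for the 44 tested genes, by class (colours): circles and bars are the edgeR estimate and its 95% interval with all 6 libraries, and crosses are the estimate without control replicate 1. Every bar spans 0, and the crosses of most core genes lie left of their circles, with the alpha median at 0.11 before and -0.04 after.

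The shift of control replicate 1 differed between the classes. Relative to the mean of the other controls its median log2 difference was -0.59 for the alpha genes, -0.32 for the beta genes, -0.17 for the ATPases, -0.02 for the non-ATPase genes, -0.07 for the other regulators and -0.21 for the assembly chaperones, whereas it was 0.01 over all genes tested. Transcript length moved with it. Across the 44 genes, the Spearman correlation between this difference and the length of the principal transcript was 0.46, and over 12684 tested genes with such a transcript it was 0.27. These are descriptions across genes, which are not independent replicates and share the 3 control libraries. For the 28 proteasome genes with a principal transcript under 2000 bases the median difference was -0.33, and for the 16 longer ones it was -0.02, a split chosen after the values were seen. The median log2 fold change was 0.11 in the shorter genes, of which 22 of 28 were above 0, and -0.02 in the longer genes, of which 6 of 16 were. All tested genes divided in the same way had medians of 0.10 and -0.03. Without control replicate 1 the proteasome medians were 0.05 and -0.04, beside 0.06 and -0.01 over all genes. The part of transcript length in these values was not tested.

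**Figure D5:**
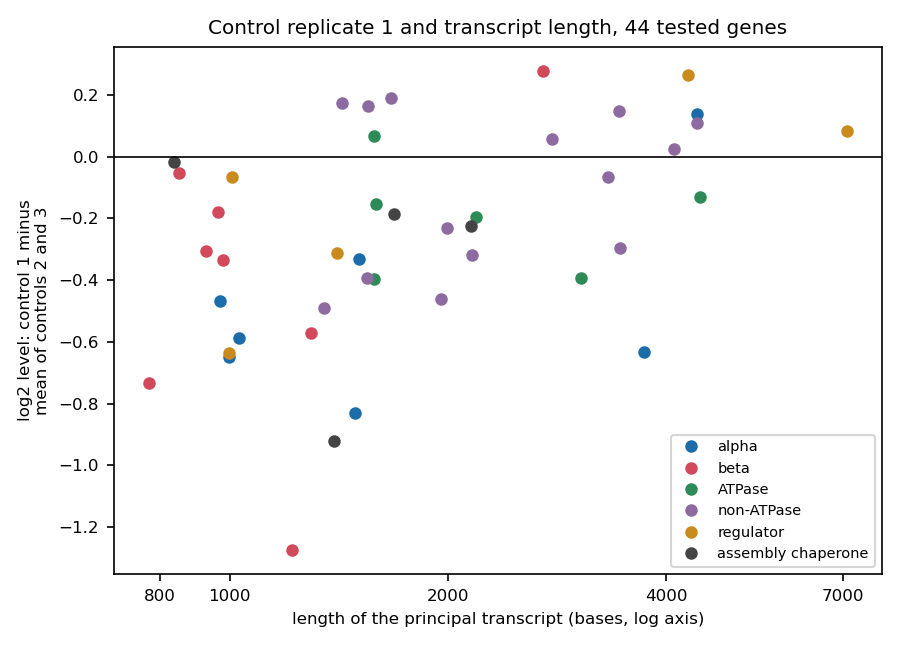
Log2 level in control replicate 1 minus the mean of control replicates 2 and 3 (vertical axis) against the length of the principal transcript in bases (log axis) for the 44 tested proteasome genes, coloured by class. Genes under 2000 bases have a median of -0.33 and reach -1.28 for PSMB10, and longer genes have a median of -0.02.

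Genes that work with the proteasome but bear other names were read from a separate list of 30 ubiquitin genes, shuttle factors, cap partners, assembly factors and transcription factors. All 30 were tested. Of these, 0 were called by edgeR, DESeq2 or limma, 2 (NFE2L2 and POMP) had an unadjusted edgeR p under 0.05, 14 were above 0 and 16 below, and the median log2 fold change was -0.01. NFE2L2 and POMP were higher without overlap between the groups, and UBQLN4 was lower without overlap.

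POMP, the chaperone that assembles the beta ring and is itself degraded by the new core (chr13:28659104-28678925, plus strand), was at 126, 108 and 115 CPM after overexpression and 67.7, 76.6 and 106 CPM in the controls. All 3 overexpression libraries lay above the controls, the lowest of them by little. The log2 fold change was 0.48 ± 0.16 (SE, edgeR adjusted p = 0.797) and 0.35 without control replicate 1.

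NFE2L2, the transcription factor of the oxidative stress response (chr2:177227595-177392697, minus strand), showed the highest value of the list. It was counted at 511, 228 and 471 CPM after overexpression and 179, 217 and 126 CPM in the controls. Overexpression replicates 1 and 3 were far above the controls and replicate 2 just above them. The log2 fold change was 1.21 ± 0.30 (SE, edgeR adjusted p = 0.797), and 1.23 without control replicate 1. NFE2L1, the related factor that raises proteasome gene transcription when the enzyme is inhibited (chr17:48048329-48061487, plus strand), was at 150.2, 167 and 138 CPM after overexpression and 167, 127.5 and 156 CPM in the controls, with a log2 fold change of 0.02 ± 0.12 (SE), or 0.10 without control replicate 1.

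Because both factors bind the antioxidant response element, the promoters of the proteasome genes were searched for its core, TGACNNNGC, on both strands. RefSeq promoter windows on GRCh38.p14, from 250 bases before to 50 after the start, were on hand for 42 of the 48 genes. Some genes have several windows, 51 for the 42 genes, and a gene was counted once if any of its windows matched. The core occurred in 15 of the 42 genes (35.7%) and in 16.1% of all 27305 genes with a window, which include non-coding genes. The CCAAT box, with the letters CCAAT, occurred in 20 of 42 (47.6%) compared with 39.7% of all genes, and the GC box, GGGCGG, in 29 of 42 (69%) compared with 48.3%. By window, the core was in 15 of 51 and in 13.3% of all 35116 windows. A match of this kind describes the letters only. The windows below are shown because NFE2L2 had the highest value among the associated genes. They are from 4 of the 7 genes in which a window with the core lies before the gene's start in both annotations, RefSeq and that of the count table. The choice among the 7 was made after the values were seen. They are written 5′ to 3′ on the strand of the gene with the 9 bases of the core in capitals.
PSMB3 chr17:38752622-38752660, plus strand: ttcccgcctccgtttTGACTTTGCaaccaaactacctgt
PSMD5 chr9:120843033-120843071, minus strand: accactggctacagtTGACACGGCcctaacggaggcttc
PSMD12 chr17:67366719-67366757, minus strand: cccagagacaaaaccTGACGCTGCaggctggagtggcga
PSME1 chr14:24136093-24136131, plus strand: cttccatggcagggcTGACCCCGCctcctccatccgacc

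The tested genes with this core in the window did not stand apart in level change. Of the 14 tested genes with a match, 7 were above 0 and the median log2 fold change was 0.00, and of the 24 tested genes with a window but no match, 16 were above 0 and the median was 0.04. Without control replicate 1 these medians were 0.00 and -0.03. Of the genes printed above, PSMB3 had a log2 fold change of 0.27, PSMD5 -0.03, PSMD12 -0.07 and PSME1 0.16. Without control replicate 1 these values were 0.07, 0.03, -0.03 and 0.14. The rest of the 7 genes, PSMD3, PSMD9 and PSME4, were all below 0, at -0.003, -0.11 and -0.16. Without control replicate 1 they were at -0.10, -0.10 and -0.13. The sign differed among genes that share the letters. Whether NFE2L2 or NFE2L1 acted on any of these genes was not tested.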

How the data were processed

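The submitters' processing notes name the aligner TopHat2 2.0.9 and the build hg38. The counting tool, gene annotation release, use of strand and treatment of reads with several matches are not given in the sources used here. The deposited table gave raw read counts per gene and, per the file headers, FPKM values that the authors derived for the same libraries. Counts entered the main test, and FPKM values an alternative (limma on log2(FPKM + 1), genes at 1 FPKM or more in at least 3 libraries).

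The 48 proteasome genes and the 30 associated genes were chosen with earlier results of these data known. Genes passing filterByExpr (minimum count 10) were scaled by TMM and tested over the whole table with the two-sided quasi-likelihood test of edgeR 4.0.16 (R 4.3.3), 3 overexpression against 3 control libraries, with Benjamini-Hochberg adjustment and a threshold of 0.05. The code was tested on simulated data. Errors are SE of the log2 fold change, and CPM values use TMM-scaled library sizes. Levels of proteasome genes were compared with each other only per kilobase of the GENCODE 29 principal transcript. Pseudogenes and overlapping genes were set against a proteasome gene by reads or CPM, without regard to length. The 48 genes had the same coordinates in the table and in GENCODE 29. Genes were named if they were the label check (SOX5), had a fixed role (catalytic, inducible and tissue-specific subunits, PSMA7, PSMD4, PSMD5, PSMD9, PSMD10, PSMD14, the regulators and the chaperones), had an unadjusted p under 0.05 in a listed gene, or had the highest or lowest log2 fold change of the alpha, beta, ATPase or non-ATPase class. PSMB1, PSMB3, PSMC1, PSMC6, PSMD3, PSMD12, PSMA5, PSMB4, NFE2L1, UBQLN4 and the overlapping genes were named after their values were seen. Sequence matches used Biopython 1.88.

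No library was a copy of another: the chi-square per degree of freedom between libraries of a group was 7.46 to 15.05. Alternatives were other scalings (RLE, upper quartile), DESeq2 1.42.0, no filter, a replicate block, limma 3.58.1, pseudogene reads added to their parent gene, and each library left out. Total counts set the depth, and floors cover counting error only.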

Additional observations from a re-analysis of the deposited data

How the results depend on the processing

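Under all 13 alternatives, 0 proteasome genes and 0 associated genes were called. The median log2 fold change of the proteasome genes was 0.04 with all libraries and 0.02 (without control replicate 1) to 0.10 (without control replicate 2) over the alternatives. The number above 0 was 26 to 32 under the scalings and other tools, and 23 without control replicate 1. The count with an unadjusted p under 0.05 was 1 under upper-quartile scaling (PSMB1), under DESeq2 (PSMG3) and with no filter (PSMG3). Over all genes these fits had 820 of 15055, 684 of 27071 and 1307 of 27086 under 0.05. When each library was left out, the count of proteasome genes was 0 to 3. Without control replicate 3 it was 3 (PSMA7, PSMB1, PSMG3), beside 1071 of 15374 over all genes. Without overexpression replicate 2 it was 1 (PSMD7), beside 672 of 15337. Without control replicate 1 it was 1 (PSMB5), beside 657 of 15387. The proteasome genes in brackets were named after their values were seen. With the replicate block 0 proteasome genes were called and 4 genes in all, against 6 without it. Libraries of the same number did not deviate together (correlations -0.036, -0.023 and -0.031), and 0 of the 6 were closest to their own number. The check thus gave no sign that the numbers pair the libraries. With so few libraries per group it cannot exclude a pairing.

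Of the 44 tested genes, 11 changed direction without control replicate 1 and 0 to 6 under each other alternative. Among the 26 genes named by the rule, 5 changed direction somewhere, and the cause was not tested. PSME3 was 0.002 under upper-quartile scaling, 0.020 with limma on FPKM values and -0.197 to 0.153 with libraries left out. PSMF1 was 0.003 under upper-quartile scaling and -0.266 to 0.119 with libraries left out. Over the same settings PSMB6 ran -0.064 to 0.008, PSMD14 -0.029 to 0.243 and PSMD5 -0.061 to 0.026. PSMG4 did not reach the FPKM minimum and had no limma value. Over all genes, calls were 24 under DESeq2, 16 without overexpression replicate 2 and 10 without overexpression replicate 3. Depth limits PSMB8, PSMB9, PSMB11 and PSMA8, which had too few reads to be tested.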
